A study of Mus musculus with 7 samples.

Results

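Fatty acid and sterol metabolism genes were followed in regulatory T (Treg) cells, the Foxp3-dependent CD4 T cells that restrain immune responses. The set holds 41 of the 15815 genes listed in the table, chosen by symbol for their roles. They cover 12 genes of mitochondrial fatty acid oxidation, 3 of lipid storage, 5 of fatty acid synthesis, 4 of fatty acid activation and binding, 9 of sterol synthesis, 4 of sterol sensing and 4 of sterol efflux and its nuclear receptors. All 41 had a row.

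The data are 7 RNA-seq libraries of YFP+ Treg cells sorted from mesenteric lymph nodes of Rag-/- mice, which make no T or B cells. Hosts had received YFP+ Treg cells along with WT naive T cells and WT Treg cells without the marker, and were examined 8 weeks later. The YFP+ cells were WT in 4 libraries (WT 1 to 4) and lacked Hpgd, the enzyme that inactivates prostaglandins, in 3 libraries (KO 1 to 3). The labels give 1 line for all 7 libraries, floxed Hpgd with a YFP-tagged Cre under Foxp3, on C57BL/6JRcc, so in KO the deletion was restricted to cells that had switched on Foxp3. As this line does not tell the groups apart, WT and KO are taken from the library titles. Neither the age of the mice nor whether each library came from its own host is given, so p-values reflect the scatter of these libraries, which may be technical.

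Levels are normalized counts, which are reads divided by 1 size factor per library, and 1 read was worth between 0.703 (WT 4) and 1.84 (KO 3). Reads per library ranged from 4135733 in KO 3 to 10622507 in WT 4. The deleted gene was low in both groups, with a mean Hpgd of 13.0 ± 4.08 (SD, n = 4) for WT against 2.90 ± 2.41 (SD, n = 3) for KO, on 56 and 7 reads. The Treg markers Foxp3 (56.1 to 161), Ctla4 (3595 to 6637) and Ikzf2 (4832 to 13872) were read in all 7 libraries. WT 2 stood apart from the others. Ribosomal protein genes took 7.60% of its reads against 4.40% to 5.54% elsewhere, and its Foxp3, Ctla4 and Ikzf2 were the lowest of the 7, while its Cd4 and Cd3e were the highest and its Il2ra lay within the range of the others. Its summed markers were the highest for red blood cells (2809), NK cells (5493), B cells (751), epithelial cells (587) and CD8 T cells (136). Single genes made up most of the last 4 sums in WT 2, with Nkg7 at 5454, Cd79b at 737, Epcam at 587 and Cd8b1 at 126. The other NK, B, epithelial and CD8 markers (Ncr1, Klrb1c, Ms4a1, Cd79a, Krt18 and Cd8a) did not peak there, and Krt18 was at 0. The 3 KO libraries held 77.4 to 239 of the red blood cell markers and the 4 WT libraries 642 to 2809. Macrophage and dendritic cell markers summed to 184 to 1428 in WT and 614 to 1590 in KO, and stromal and endothelial markers to 237 to 455 and 273 to 414. Single genes weighed heavily in these sums too. Lyz2 was the largest macrophage and dendritic cell marker in every library but WT 3, from 47.5 in WT 3 to 1274 in KO 1. Pecam1, at 212 to 425, made up most of the stromal and endothelial sum in every library. Of the 5 adipocyte markers only Plin1 had a row, at 4.53 to 17.0 in WT and 9.11 to 13.7 in KO. Adipoq, Fabp4, Lep and Cidec were not among the genes listed.

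As background, cells burn fatty acids in mitochondria after the carnitine shuttle, in which Cpt1a catalyses the controlled step, has moved them across the membranes. Fatty acids are built in the cytosol from citrate by Acly, Acaca and Fasn, and surplus is stored as triglyceride in lipid droplets. Cholesterol is made through the mevalonate pathway. When sterol is scarce, Scap carries SREBP factors, encoded by Srebf1 and Srebf2, to the Golgi for release, and Insig proteins hold them back when sterol is plentiful. Excess sterol activates LXR, partnered with RXR, which raises the exporters Abca1 and Abcg1. Treg cells are known to draw on fatty acid oxidation and to depend on mevalonate products.

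SREBP factors act at promoters together with NF-Y, which binds CCAAT boxes, so stretches around these motifs are shown for the sterol, fatty acid synthesis and storage genes, where no annotated exon overlapped them. The stretches are from RefSeq windows (GRCm38.p6) of 31 matched members and lie before the transcription start, on the strand of the gene. Capitals mark CCAAT boxes, which read ATTGG where they lie on the other strand, and the SREBP element TCACNCCAC. The first is upstream of Hmgcs1, whose enzyme opens the mevalonate pathway, at chr13:119690101-119690330 on the plus strand. Lss encodes the enzyme that closes the sterol rings and lies at chr10:76531523-76531567 on the plus strand. The stretch of Fasn, the fatty acid synthase gene, is chr11:120824582-120824657 on the minus strand. The stretches of the sterol sensing genes Insig1 and Srebf2 are chr5:28071176-28071220 and chr15:82147114-82147158, both on the plus strand. Srebf1 has a stretch before each of 2 starts, chr11:60210477-60210521 and chr11:60222723-60222767, and that of the lipid droplet gene Plin2 is chr4:86670108-86670152, all on the minus strand.
Hmgcs1: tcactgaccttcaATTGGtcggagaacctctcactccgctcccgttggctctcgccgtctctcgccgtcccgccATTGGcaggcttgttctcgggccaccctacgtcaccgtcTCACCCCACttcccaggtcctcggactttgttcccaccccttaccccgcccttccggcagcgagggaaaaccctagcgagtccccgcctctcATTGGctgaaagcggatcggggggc
Lss: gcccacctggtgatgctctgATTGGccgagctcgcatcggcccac
Fasn: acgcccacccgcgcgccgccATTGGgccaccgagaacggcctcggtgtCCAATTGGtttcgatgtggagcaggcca
Insig1: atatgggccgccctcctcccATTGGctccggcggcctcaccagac
Srebf2: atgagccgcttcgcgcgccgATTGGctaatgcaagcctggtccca
Srebf1, at 60210477: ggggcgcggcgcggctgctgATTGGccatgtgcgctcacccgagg
Srebf1, at 60222723: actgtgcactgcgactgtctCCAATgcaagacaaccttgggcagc
Plin2: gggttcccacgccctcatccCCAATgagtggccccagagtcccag

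In the 250 bases before the start, a CCAAT box on either strand was found in all 6 sterol synthesis members with a window (Cyp51, Dhcr7, Hmgcs1, Idi1, Lss and Msmo1), in 3 of 4 sterol sensing members, 5 of 11 oxidation members, 2 of 3 activation and binding members, 1 of 3 fatty acid synthesis members, the 1 storage member and 0 of 3 efflux members. Of all genes with a window, 37.5% held one. The SREBP element in these exact letters was found in Hmgcs1 only, starting 137 bases before the start, and in 1.22% of all genes. In Fasn the letters CCAAT and ATTGG overlapped. Direct repeats of AGGTCA spaced by 4 bases (the LXR element) or by 1 base (the PPAR element) were found in none of the 31 members and in 0.0148% and 0.0407% of all genes. A match is a run of letters and not a shown binding site.

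Levels per kb of transcript spanned a wide range. Abcg1, a sterol exporter, was the most abundant member at 1391 ± 381 normalized counts per kb (SD, n = 7). The oxidation genes Hadhb (813 ± 117), Etfb (784 ± 272) and Etfa (623 ± 115) followed, encoding a subunit of the trifunctional protein and the electron carrier that takes electrons from the acyl-CoA dehydrogenases. Among the genes that activate or bind fatty acids, Acsl5 (377 ± 34.1) and Fabp5 (323 ± 75.9) were high. Sterol synthesis was lower, from Fdps (235 ± 70.8) down to Lss (11.9 ± 3.42). Acsl3 (1.94 ± 1.99) and Scd1 (1.34 ± 1.06) were the lowest, and these 2 had a mean normalized count under 10 and were not tested. Summed per kb, oxidation ranged from 3324 to 5773 between libraries, sterol synthesis from 577 to 856 and fatty acid synthesis from 429 to 603.

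**Figure D1:**
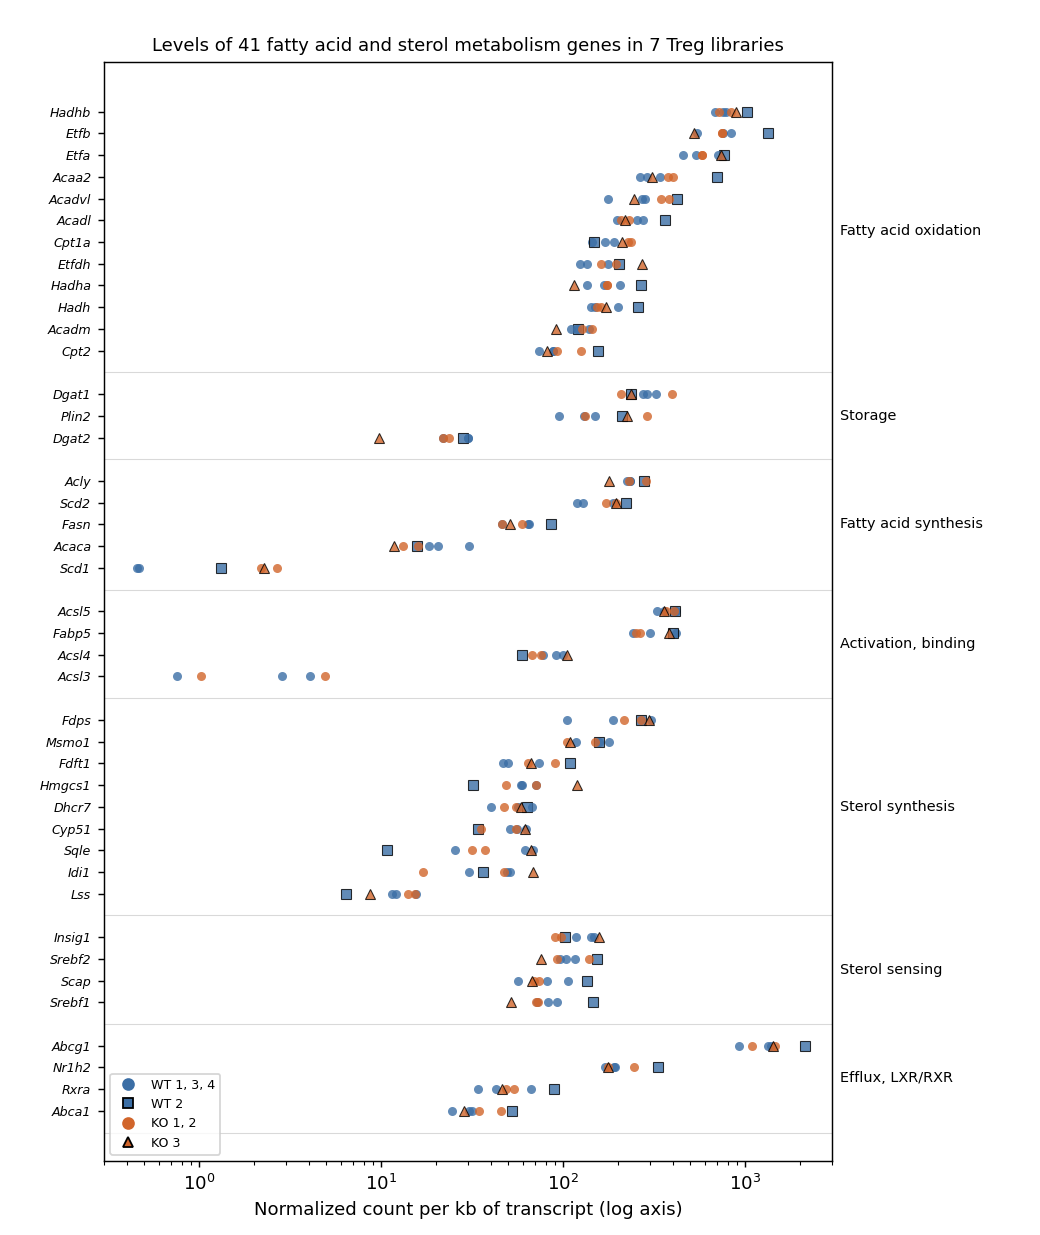
Each point is 1 library's level of 1 member, in normalized counts per kb of transcript on a log axis, grouped by role, with WT in blue and KO in orange, a square for WT 2 and a triangle for KO 3. Values of 0 (WT 4 for Scd1, WT 2 and KO 3 for Acsl3) cannot be drawn, and Abcg1 sits highest at 1391 on average.

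No member differed between the genotypes past the test. Of the 39 members tested, 0 passed a limma adjusted p of 0.05, against 0.00% of all 11787 tested genes, and 1 member (Cpt1a) had an unadjusted p under 0.05, where 1.79% of all tested genes did. The limma adjusted p was 1.00 for each of the 39. Estimates were above 0 for 15 members and below for 24 (median log2 fold change -0.06), and over all tested genes 48.2% were lower, with a median of 0.01. The 2 genotypes were fully apart in 1 of the 39 members and in 3.65% of all tested genes. The median 95% interval of a member reached 0.58 log2 units to either side. All log2 fold changes set KO against WT after adding 1 to the normalized count.

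**Figure D2:**
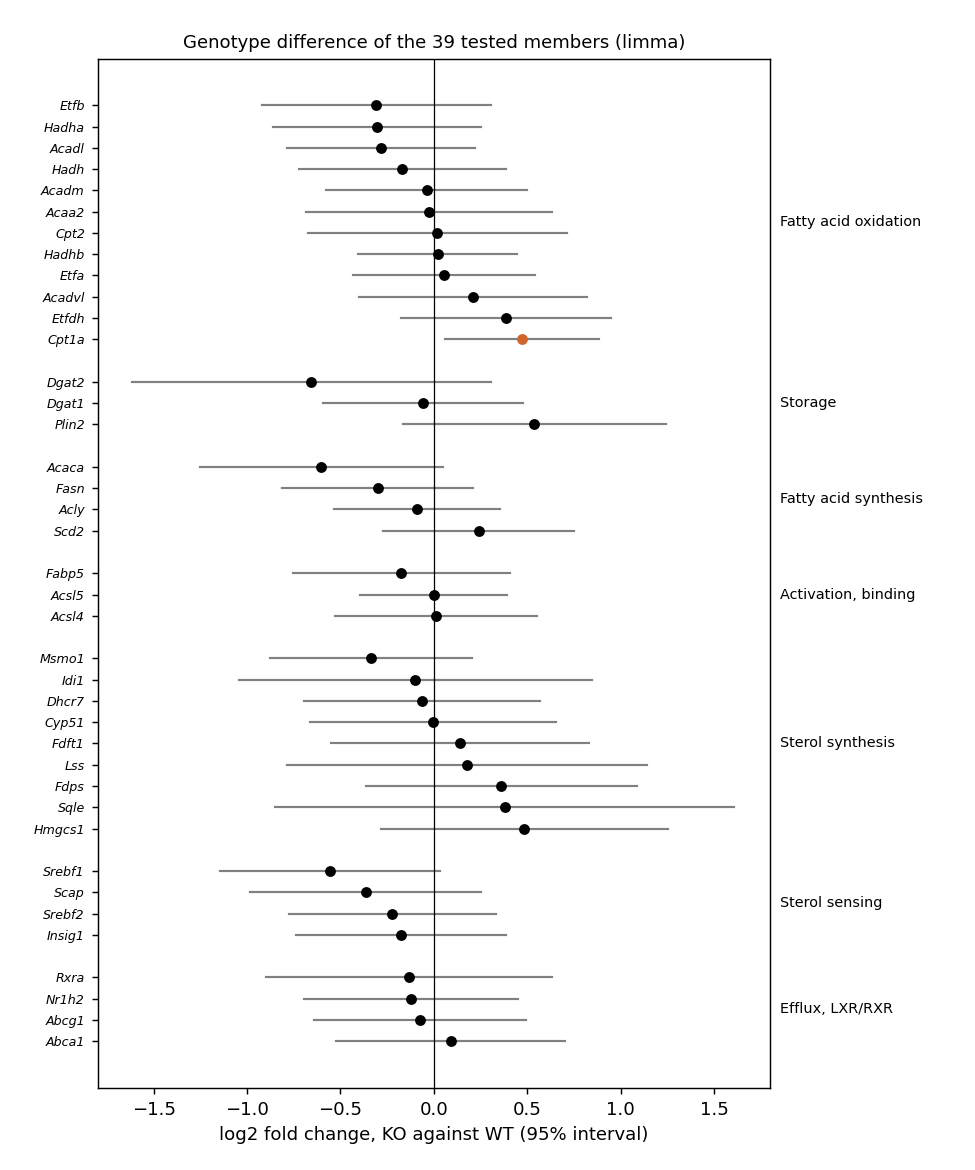
Points are log2 fold changes of the 39 tested members, KO against WT (1 added before the log), bars are 95% intervals from limma, and orange marks the gene whose groups did not overlap. Only the interval of Cpt1a leaves out 0, and no member passed after adjustment.

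Fatty acid oxidation split evenly, with 6 estimates on either side of 0 and a median of 0.00. Cpt1a (mm10, chromosome 19, 3322334 to 3385733, plus strand) read 618, 639, 729 and 821 across WT 1 to 4, and 1018, 978 and 907 across KO 1 to 3. Every KO library was above every WT library, which held for 1.71% of tested genes. The log2 fold change was 0.47 (SE 0.19, 95% interval 0.06 to 0.88, limma p 0.0282 before and 1.00 after adjustment), with an exact two-sided permutation p of 0.0571, and 0.0286 is the lowest that 4 against 3 libraries allow. Leaving out WT 1, KO 1 or KO 2 took the limma p before adjustment to 0.0829, 0.0908 and 0.0814. Among the oxidation genes, WT 2 was farthest below the mean of the other libraries for Cpt1a, at 0.756 of it, though WT 1 was lower than WT 2. Etfdh, whose product passes the electrons on to ubiquinone, was at 311, 470, 284 and 407 across WT and 370, 450 and 629 across KO. The highest value was KO 3, the groups overlapped, and the log2 fold change was 0.39 (SE 0.26), or 0.18 without KO 3. Acadl, a long-chain acyl-CoA dehydrogenase gene, was at 491, 694, 529 and 381 across WT and 401, 440 and 421 across KO. Its WT libraries spread widely around the tight KO group, and the log2 fold change was -0.28 (SE 0.23), with -0.14 without WT 2 and -0.43 without WT 4.

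The other oxidation members had log2 fold changes between -0.31 (Etfb) and 0.21 (Acadvl). WT 2 was the highest of the 7 libraries for 9 of the 12 oxidation members, against 29.2% of all tested genes, and the lowest for none of them. The mitochondrial thiolase gene Acaa2, chosen after its values were seen, was at 517, 1057, 401 and 436 across WT and 609, 573 and 467 across KO. WT 2 held 2.11 times the mean of the other 6 libraries. Etfb reached 1198 in WT 2 and lay between 465 and 746 elsewhere. Without WT 2 the median log2 fold change of the 12 genes was 0.15 in place of 0.00. The part of the ribosomal protein share and of the other cells' markers of WT 2 in these values was not tested.

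**Figure D3:**
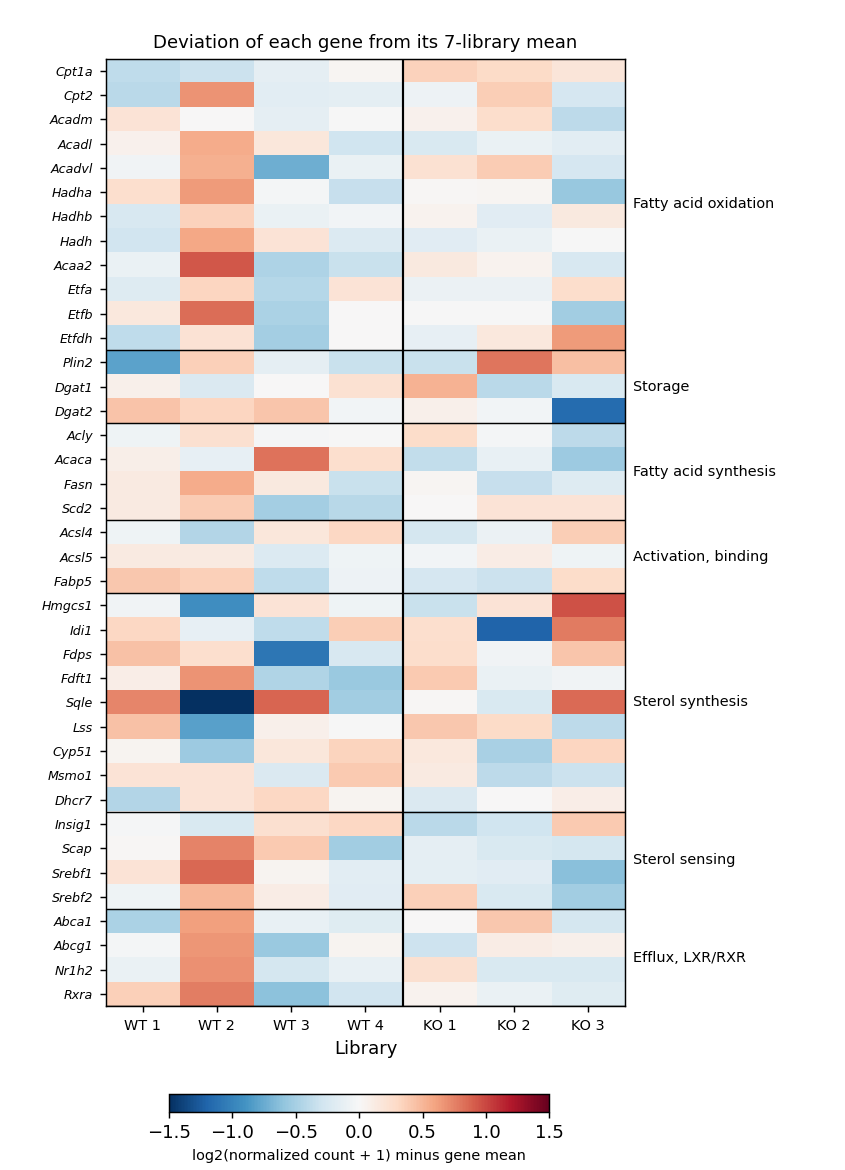
Colour gives each tested member's log2(normalized count + 1) in a library minus its mean over the 7 libraries, red above and blue below, with genes in rows by role and WT left of the vertical line. WT 2 is red for most oxidation, sterol sensing and efflux genes and blue for Hmgcs1, Sqle, Lss and Cyp51.

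Storage genes had 1 estimate above 0 and 2 below (median log2 fold change -0.06). Plin2, which coats lipid droplets, was at 178, 399, 283 and 246 across WT and 247, 545 and 425 across KO. KO 2 and KO 3 were the highest of the 7, KO 1 lay among the WT libraries, and the log2 fold change was 0.54 (SE 0.32). Without KO 2 it was 0.29 and without KO 1 it was 0.86. Dgat1 and Dgat2 encode the enzymes of the last step of triglyceride synthesis. Dgat1 was at 547, 446, 520 and 608 across WT and 746, 392 and 443 across KO, so KO held both its highest and its lowest value (log2 fold change -0.06, SE 0.25). Dgat2 was at 68.2, 63.4, 67.9 and 49.2 across WT and 53.1, 49.3 and 22.1 across KO (log2 fold change -0.66, SE 0.44). WT 4 lay just under KO 1 and KO 2, and without KO 3, the lowest library, the log2 fold change was -0.26.

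For 3 of the 4 tested fatty acid synthesis genes the KO estimate was the lower one, at a median log2 fold change of -0.19. Acaca, acetyl-CoA carboxylase, which makes malonyl-CoA, was at 169, 147, 282 and 189 across WT and 123, 147 and 108 across KO. WT 3 was far above the rest, KO 2 lay just above WT 2 so that the groups overlapped, and the log2 fold change was -0.60 (SE 0.30). Without WT 3 it was -0.42. Fasn was at 591, 792, 596 and 427 across WT and 549, 422 and 469 across KO (log2 fold change -0.30, SE 0.24), with its highest value in WT 2. Without WT 2 the log2 fold change of Fasn was -0.16, and without WT 4 it was -0.45. Acly, which supplies cytosolic acetyl-CoA, lay between 767 and 1221.

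Scd1 and Scd2 encode stearoyl-CoA desaturases, which make monounsaturated fatty acids. Scd2 was the abundant one, at 1023, 1207, 650 and 699 across WT and 933, 1070 and 1070 across KO (log2 fold change 0.24, SE 0.24). Scd1 was near the floor, at 2.20, 6.34, 2.26 and 0 across WT and 12.9, 10.5 and 11.0 across KO. Every KO library was above every WT library, which held for 2.48% of the 4028 genes under the filter. The Scd1 values rest on 2, 7, 2 and 0 reads from WT 1 to 4, against 17, 13 and 6 reads from KO 1 to 3, a ratio of 4.56 with a 95% exact interval of 2.27 to 9.94 for counting error alone. Read as a share of Scd2, Scd1 was 0.215%, 0.525%, 0.348% and 0% in WT and 1.38%, 0.982% and 1.03% in KO. This share uses the same Scd1 reads, so its lack of overlap is not a second result. From the fit to all listed genes, the log2 fold change of Scd1 was 2.07 (SE 0.86, unadjusted limma p 0.0297), with an exact two-sided permutation p of 0.0571. Leaving out WT 4, KO 1, KO 2 or KO 3 took the limma p before adjustment to 0.0827, 0.0774, 0.0541 and 0.0522. The log2 fold change was 1.55 without WT 4. Adding 5 in place of 1 before the log gave 1.16, and adding 0.5 gave 2.41, so the size of the fold depends on this choice. Scd1 shares 8.20% of its distinct 31-base stretches with other genes, 5.85% with Scd3 and 5.19% with Scd2, so a few reads of one could be counted for another, and how they were divided is not given. Plin1, the adipocyte marker, was at 5.50, 4.53, 17.0 and 4.92 across WT and 9.11, 13.7 and 11.0 across KO. The part of other cells in the Scd1 reads was not tested.

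**Figure D4:**
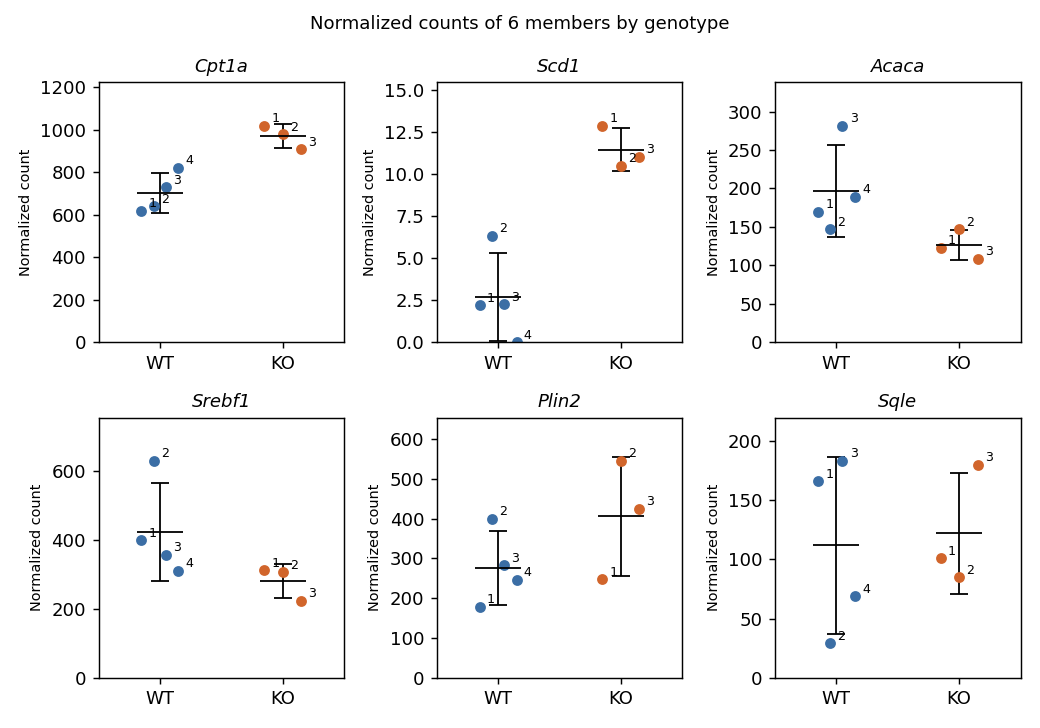
Points are normalized counts per library, numbered by replicate, with the mean and SD of the 4 WT and 3 KO libraries as bars, for 6 members on axes that start at 0. Cpt1a and Scd1 have no overlap between genotypes, and Acaca, Srebf1, Plin2 and Sqle do.

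The 3 tested genes that activate or bind fatty acids had the smallest median SD over the 7 libraries of the 7 roles, 0.30 log2 units. The 4 tested fatty acid synthesis genes were close at 0.33, and the untested Acsl3 had an SD of 1.65. Acsl5, an acyl-CoA synthetase gene, was at 1759, 1755, 1382 and 1522 across WT and 1553, 1718 and 1521 across KO, a highest over lowest ratio of 1.27, the smallest of the 39. Its log2 fold change was 0.00 (SE 0.18, 95% interval -0.39 to 0.39). Acsl4, which prefers arachidonate, was at 392, 301, 459 and 507 across WT and 342, 383 and 530 across KO (log2 fold change 0.01, SE 0.25). Fabp5, a cytosolic fatty acid carrier, was at 411, 398, 239 and 295 across WT and 261, 248 and 377 across KO (log2 fold change -0.17, SE 0.27). In both, the 2 genotypes covered much the same range. Acsl3 rested on 25 reads in WT and 22 in KO, with 0 in WT 2 and KO 3.

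In sterol synthesis 5 estimates were above 0 and 4 below, at a median of 0.14. Hmgcs1 was at 199, 108, 238 and 198 across WT and 163, 238 and 399 across KO (log2 fold change 0.48, SE 0.35). KO 3 was its highest and WT 2 its lowest library, and without both the log2 fold change was -0.09. Fdps, which makes farnesyl diphosphate, was at 398, 349, 138 and 247 across WT and 351, 282 and 390 across KO (log2 fold change 0.36, SE 0.34), with WT 3 alone far below, and without WT 3 the log2 fold change of Fdps was 0.05. Msmo1, a methylsterol oxidase gene, was at 322, 321, 240 and 365 across WT and 307, 213 and 223 across KO (log2 fold change -0.34, SE 0.25). Fdft1, Idi1, Cyp51 and Dhcr7 had log2 fold changes between -0.10 and 0.14.

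Single sterol synthesis genes differed in how widely they spread. Sqle, which encodes squalene epoxidase, was chosen after its values were seen. It was at 166, 29.0, 183 and 68.9 across WT and 101, 84.8 and 180 across KO, a range of 6.32-fold, the widest of the 39 members. The lowest value and the highest were both WT (WT 2 and WT 3), and the log2 fold change was 0.38 (SE 0.57, 95% interval -0.85 to 1.61). Lss, also chosen after its values were seen, was at 72.6, 29.9, 56.5 and 53.4 across WT and 71.3, 65.4 and 40.5 across KO, again lowest in WT 2. Idi1, which isomerises isopentenyl diphosphate, was at 51.7 in KO 2 and 206 in KO 3, its lowest and highest values. The median SD over the 7 libraries was 0.46 log2 units for sterol synthesis, 0.34 for oxidation and 0.40 for all 11787 tested genes. Of the sterol synthesis genes, Cyp51 (0.37), Msmo1 (0.30) and Dhcr7 (0.25) were below that 0.40. The 2 roles also differed in level, with a median mean count of 199 for sterol synthesis and 608 for oxidation. For the 5928 tested genes with a mean of 50 to 500, which held all 9 sterol synthesis genes, the median SD was 0.40.

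The 9 sterol synthesis genes had their extremes in different libraries. WT 2 was lowest for 4 of them (Hmgcs1, Sqle, Lss and Cyp51), against 27.1% of all tested genes, and highest for Fdft1 (359, where the other libraries lay between 153 and 295). KO 3 was highest for 2, Hmgcs1 and Idi1, and 21.0% of all tested genes had their highest value there. The mean log2 level of oxidation minus that of sterol synthesis was 1.39, 2.46, 1.53 and 1.63 for WT 1 to 4, against 1.60, 2.01 and 1.31 for KO 1 to 3. WT 2 was the highest on this difference and KO 3 the lowest, so each genotype held an extreme. Without WT 2 the median log2 fold change of sterol synthesis was -0.07, the opposite sign.

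The estimates of all 4 sterol sensing members were below 0 (median -0.29), and none passed. Of the 11 other sterol sensing genes tested, 7 estimates were above 0 and 4 below (median 0.05). Srebf1 was at 398, 627, 355 and 309 across WT and 311, 305 and 223 across KO (log2 fold change -0.56, SE 0.27, 95% interval -1.15 to 0.03). The groups met only at WT 4 and KO 1, which lay within 2 normalized counts of each other. Without WT 2, the highest library, the log2 fold change was -0.35, and without both WT 2 and KO 3 it was -0.19. Scap was at 347, 572, 448 and 238 across WT and 313, 291 and 285 across KO (log2 fold change -0.37, SE 0.29), with a tight KO group inside the WT range. Without WT 2 the log2 fold change of Scap was -0.17, and without WT 4 it was -0.59. Srebf2 was at 472, 697, 532 and 438 across WT and 634, 421 and 344 across KO (log2 fold change -0.22, SE 0.26), and its sign turned to 0.11 without both WT 2 and KO 3. Insig1 was at 319, 274, 382 and 399 across WT and 244, 262 and 425 across KO (log2 fold change -0.18, SE 0.26). Unlike Srebf1, Srebf2 and Scap, Insig1 did not peak in WT 2 but in KO 3. Without WT 2 the median of the 4 genes was -0.22.

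The efflux genes and nuclear receptors had their extremes in the WT group. WT 2 was highest for 4 of 4, against 29.2% of tested genes, and WT 3 lowest for 3 of 4, against 19.2%. Abcg1 was at 4781, 7672, 3318 and 5010 across WT and 3906, 5262 and 5130 across KO (log2 fold change -0.07, SE 0.26). Abca1 was at 253, 540, 326 and 311 across WT and 354, 468 and 294 across KO (log2 fold change 0.09, SE 0.28). Both exporters thus had their KO values inside the WT range. Nr1h2, which encodes LXR beta, was at 375, 647, 333 and 370 across WT and 474, 343 and 342 across KO (log2 fold change -0.12, SE 0.27). Rxra, which encodes its partner RXR alpha, was at 174, 232, 88.2 and 111 across WT and 140, 126 and 120 across KO (log2 fold change -0.13, SE 0.35). The median of the 4 was -0.10 in all 7 libraries and 0.12 without WT 2. Fewer cells of a type and less RNA per cell cannot be told apart in these sorted pools.

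Other genes of the same pathways were read from lists of 115 genes, of which 101 were listed and 90 tested. Of these, 0 passed in either direction, 50 estimates were above 0 and 40 below, and the median log2 fold change was 0.02. In 3 of the 90 the groups did not overlap, beside 3.65% of all tested genes. Crat, which moves acetyl groups onto carnitine, was at 53.9, 62.5, 50.9 and 55.5 across WT and 34.2, 30.7 and 1.84 across KO. The groups did not overlap, and the log2 fold change of Crat was -1.95 (SE 0.78) at a limma adjusted p of 1.00. Without KO 3, where it rests on a single read, the log2 fold change was -0.76. Insig2, the paralog of Insig1, was named after its values were seen. It was at 345.4, 337, 293 and 328 across WT and 353, 347 and 345.7 across KO (log2 fold change 0.10, SE 0.21).

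The gene with the smallest p in each of the other lists did not pass either. Hilpda, a lipid droplet gene induced by low oxygen, was at 101, 162, 89.3 and 128 across WT and 157, 167 and 217 across KO (log2 fold change 0.61, SE 0.31). Its pattern was like that of Plin2 in that the 2 highest libraries were KO 2 and KO 3. Elovl6, a fatty acid elongase gene, had a log2 fold change of 0.54 (SE 0.40) and the synthetase gene Acsl1 one of 0.49 (SE 0.39). Leaving out 1 library in turn gave 0.26 to 0.85 for Elovl6 and 0.22 to 0.66 for Acsl1, and both were lowest without WT 2. Mvk, mevalonate kinase, was at 47.3, 58.8, 22.6 and 33.0 across WT and 27.3, 21.8 and 12.9 across KO (log2 fold change -0.91, SE 0.56). Npc1, which exports cholesterol from lysosomes, was at 544 ± 117 (SD, n = 4) and 654 ± 71.9 (SD, n = 3), with a log2 fold change of 0.29 (SE 0.22). Pparg, a lipid-sensing nuclear receptor gene, was at 26.4 in WT 1 and at 0 in WT 2 to 4, and at 5.31, 1.62 and 36.8 in KO (log2 fold change 1.90, SE 1.63). With 3 WT values at 0 this fold depends on the amount added before the log, at 0.84 for 5 and 2.51 for 0.5, and leaving out 1 library gave 0.83 (without KO 3) to 3.095 (without WT 1).

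Some members share sequence with other annotated genes, which limits how surely their reads can be placed. Of the 41, 17 share no 31-base stretch with a transcript of another gene in GENCODE M21, and 8 share more than 30% of theirs. These 8 are Fdps (67.5%), Hadhb (62.1%), Etfb (62.0%), Acaca (53.2%), Fdft1 (36.8%), Fabp5 (33.1%), Acadvl (32.3%) and Idi1 (30.5%). Cpt1a, Sqle, Srebf2, Abca1, Nr1h2 and Rxra share none.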

How the data were processed

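The values are a signal the authors deposited, 1 per gene and library, already normalized. SmartSeq2 libraries, which keep neither strand nor molecular identifiers, were made from 10 ng of RNA and run on a NextSeq 500, per the labels' protocols. Tools listed without role or order in the submitters' processing notes are kallisto 0.44, DESeq2, Partek 6.6, CASAVA 1.8 and R 3.3.1, with the build mm10. After subtracting 1, which is the minimum in every library, 100% of values fell on a grid of whole reads (tolerance 0.01 of a read), so values minus 1 are used as normalized counts. No pair of libraries of a group agreed within sampling noise (smallest chi-square per degree of freedom 15.5).

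The 4 WT and 3 KO libraries were compared by limma 3.58.1 in R 4.3.3, using log2 of the normalized count plus 1, a mean-dependent eBayes prior, no covariate, a mean of at least 10 (11787 genes) and Benjamini-Hochberg adjustment over all tested genes at 0.05. The fit was tested on simulated data. Members and lists were chosen with earlier results of these data known. Named in full are the 3 tested members of each role with the smallest p, 9 fixed members, and the smallest-p gene of each other list. Lengths are medians of coding transcripts in GENCODE M21. Intervals from reads cover counting error only. Libraries numbered alike did not deviate together. Alternatives were other pseudocounts, filters, priors and scalings, voom, array weights, a replicate block and leaving out libraries. Some results are not reported here.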

Additional observations from a re-analysis of the deposited data

Results flagged for a closer look

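In 2 of the 35 genes named with fold changes, 1 WT library lay far from the other 3. Chance alone meets this test in about 1 in 20 groups of 4, so 2 flags among 35 genes are near that rate. Nr1h2 was at 647 in WT 2, and the nearest WT library was at 375. Pparg was at 26.4 in WT 1 and at 0 in the other WT libraries. With 3 values tied at 0 any WT 1 value above 0 is flagged, so the 1 in 20 does not hold for Pparg. Groups of 3, which the KO libraries form, cannot be tested this way.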

How the results depend on the processing

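In each of the 19 alternatives run, 0 members passed. Over all genes 4 passed with array weights, 3 with the replicate block and 4 without both WT 2 and KO 3, against 0 otherwise (0 to 0 leaving out 1 library). At an unadjusted p under 0.05 there were 0 to 3 members, with 1 member and 211 of all 11787 tested genes in the main fit. Array weights gave 3 members and 579 of all tested genes, and leaving out both WT 2 and KO 3 gave 3 and 400. Without WT 2 the counts were 3 and 290, and without WT 4 they were 3 and 246. They were 0 and 152 without WT 1, and 0 and 221 without KO 2. The planned tests by edgeR and DESeq2 were not run, because no deposited column holds counts as such. Reads recovered from the values were used by voom, by the TMM and total-count scalings and for the Scd1 ratio. Libraries with the same number correlated at 0.00814, -0.0357 and 0.0944 in their deviations, so the block is a check only. Of 35 named genes, 23 kept their sign in each alternative run. No KO library shares the number of WT 4, so the block gave the same log2 fold changes as leaving out WT 4. With the block Dgat1 turned to 0.00977. Acsl5 turned to 2.34e-05 with TMM scaling, 0.00562 with total-count scaling and 0.00141 with voom, and Acsl4 to -0.0330 with voom. Array weights gave -0.21 for Acsl4, 0.0505 for Acsl5, 0.00720 for Nr1h2, 0.0166 for Abcg1, -0.11 for Sqle and 0.24 for Acaa2. Without both WT 2 and KO 3, Acsl4 was at -0.31, Acsl5 0.0784, Hmgcs1 -0.0943, Srebf2 0.11, Nr1h2 0.17, Rxra 0.15, Abcg1 0.0764, Sqle -0.46 and Acaa2 0.39. Leaving out 1 library in turn gave ranges from -0.34 to 0.13 for Dgat1, -0.17 to 0.15 for Acsl4, -0.0707 to 0.0452 for Acsl5, -0.28 to 0.0906 for Nr1h2, -0.36 to 0.10 for Rxra, -0.0868 to 0.31 for Abca1, -0.27 to 0.14 for Abcg1, -0.15 to 0.73 for Sqle, -0.0701 to 0.42 for Lss and -0.18 to 0.28 for Acaa2. With the same sign, leaving out 1 library also moved Insig1 (-0.42 to -0.03), Fabp5 (-0.36 to -0.06), Srebf2 (-0.47 to -0.03), Scd2 (0.10 to 0.40), Hmgcs1 (0.15 to 0.79), Npc1 (0.16 to 0.41) and Insig2 (0.05 to 0.13) by over 1.5 times. The cause was not tested. KO 3, with the fewest reads, limits genes near the floor.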
